A study of Mus musculus with 10 samples.

Results

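The genes described here are 40 genes of glutathione, thioredoxin and antioxidant metabolism, out of the 55536 mouse genes in the count tables. They were listed by symbol and known role rather than by a cutoff on measured values, though with earlier results of these data known. All 40 were found by matching gene identifiers to GENCODE M21 symbols. The 10 RNA-Seq libraries came from 5 mice aged 1 year, each of which gave cerebellum and cerebral cortex. The study asked how loss of Snx14, a sorting nexin of the endoplasmic reticulum involved in lipid handling, affects a brain region that degenerates and one that does not. There were 3 control mice and 2 Snx14-KO mice. Controls 1 and 2 were Het and control 3 was WT, and the labels name all 3 as control. The KO mice carried a whole-body frameshift deletion in both copies of Snx14, made with Cas9 on a C57BL/6J background, with no tissue-specific promoter or second allele.

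Cells import cystine through an antiporter made of Slc7a11 and Slc3a2 and turn it into cysteine, from which glutamate-cysteine ligase (Gclc, Gclm) and glutathione synthetase (Gss) build glutathione. Glutathione peroxidases such as Gpx1 and Gpx4 use glutathione to reduce peroxides, while the thioredoxin system and the peroxiredoxins other than Prdx6 do so with thioredoxin. Ferroptosis is an iron-dependent cell death driven by peroxidation of membrane lipids. Gpx4 reduces lipid peroxides in membranes, Slc7a11 supplies it with glutathione, and Aifm2 (also called FSP1) protects membranes through reduced coenzyme Q without glutathione.

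Promoter sequences are shown for members on which the results turn, to show which carry the letters bound by stress-response factors. RefSeq promoter windows of build GRCm38.p6, 250 bases before and 50 after an annotated start, were found for 34 of the 40 members. Gclc, Gsr, Gsta4, Hmox1, Prdx6 and Sod3 were not matched. Searched on both strands were TGACNNNGC (the core of the antioxidant response element, bound by NRF2), TGATGNAA (the core of the amino acid response element, bound by ATF4) and CACGTG (the E-box, bound by factors such as MondoA). Capitals mark matches, no 2 of which overlapped in any member's window.
Slc7a11, chr3:50443564-50443863, minus strand: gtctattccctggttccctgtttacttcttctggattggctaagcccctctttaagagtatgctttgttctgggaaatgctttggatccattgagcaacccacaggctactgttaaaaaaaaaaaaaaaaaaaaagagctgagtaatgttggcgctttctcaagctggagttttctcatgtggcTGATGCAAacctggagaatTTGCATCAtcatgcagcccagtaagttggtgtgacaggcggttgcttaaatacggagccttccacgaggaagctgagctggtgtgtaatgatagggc
Gpx3, chr11:54902604-54902903, plus strand: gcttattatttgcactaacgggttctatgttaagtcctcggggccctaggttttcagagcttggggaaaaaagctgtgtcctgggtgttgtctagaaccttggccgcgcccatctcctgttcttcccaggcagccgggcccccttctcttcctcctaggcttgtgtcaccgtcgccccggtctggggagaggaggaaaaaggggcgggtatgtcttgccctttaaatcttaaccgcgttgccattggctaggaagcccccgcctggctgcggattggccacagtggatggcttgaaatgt
Txnip, chr3:96557707-96558006, plus strand: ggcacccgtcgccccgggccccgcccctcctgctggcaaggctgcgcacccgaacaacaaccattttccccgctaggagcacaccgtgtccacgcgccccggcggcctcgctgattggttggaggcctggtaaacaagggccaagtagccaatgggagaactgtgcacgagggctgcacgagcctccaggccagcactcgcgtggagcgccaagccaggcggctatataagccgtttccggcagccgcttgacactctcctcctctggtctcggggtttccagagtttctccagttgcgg
Gclm, chr3:122245307-122245606, plus strand: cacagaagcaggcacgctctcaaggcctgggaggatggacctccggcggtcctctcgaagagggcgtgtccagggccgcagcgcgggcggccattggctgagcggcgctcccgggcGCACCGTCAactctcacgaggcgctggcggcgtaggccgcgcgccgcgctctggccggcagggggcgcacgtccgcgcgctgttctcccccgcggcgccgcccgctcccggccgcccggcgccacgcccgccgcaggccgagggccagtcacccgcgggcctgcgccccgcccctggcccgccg
Txnrd1, chr10:82858956-82859255, plus strand: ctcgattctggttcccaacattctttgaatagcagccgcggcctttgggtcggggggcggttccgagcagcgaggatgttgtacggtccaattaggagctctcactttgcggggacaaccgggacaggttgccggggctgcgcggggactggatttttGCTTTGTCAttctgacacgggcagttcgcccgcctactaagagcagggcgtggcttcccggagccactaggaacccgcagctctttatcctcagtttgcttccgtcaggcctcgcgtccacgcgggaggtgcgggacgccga
The first 3 are the windows of the genes called in KO cerebellum that have one, and Gclm and Txnrd1 (1 of its 3 windows) are shown as members with an antioxidant response element core. The Slc7a11 window held TGATGCAA from 66 bases before the start and the same letters on the other strand from 47 bases before it. No other member held this core, which was present in 3.97% of all 32851 windows. The Gpx3 and Txnip windows held no exact match to the 3 motifs. Sites that differ from these letters were not searched, and the Txnip window holds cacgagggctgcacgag. The Gpx3 window lies downstream of the first base of the gene in GENCODE M21, so another start of the gene was not searched. The antioxidant response element core was present in 8 of the 34 members with a window (23.5%): Gclm, Gstm5, Mgst1, Nfe2l2, Prdx1, Sod1, Srxn1 and Txnrd1. It was present in 14.0% of all 27025 genes with a window. The Gstp1 window holds tgagtcagc, with g in place of the searched C, and was not counted. The E-box was found in 1 member, Prdx4, and in 7.15% of all windows.

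Library totals were 16088310 to 22975355 gene counts. Snx14 itself read 42.8, 39.9 and 73.2 normalised counts (CPM, counts scaled to a common library size) in control cerebellum 1 to 3 and 15.5 and 17.4 CPM in KO cerebellum, and 34.3, 34.9 and 50.8 against 14.8 and 16.1 CPM in cortex, so both tissues matched their labels. By their Xist and Ddx3y levels, control 2 and KO 2 were male mice and the other 3 female. Control mouse 2 stood apart in cortex. Its cortex had a summed level of 9 striatal neuron genes of 4377 CPM, against 1792 and 1975 CPM in the other controls and 592 and 1115 CPM in KO cortex, and it was the highest of 5 cortex libraries for 22 of the 40 members (55.0%) and for 32.2% of all genes tested. In cerebellum control 2 and KO 2 were each the highest library for 14 of the 40 members (35.0%). Control 2 was the highest for 22.8% of all genes tested there, beside 22.0% for KO 1 and 21.7% for KO 2. KO cerebellum 1 had a sum of 8 choroid plexus genes of 219 CPM, against 1582 to 4983 CPM in the other cerebellar libraries.

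Loss of Snx14 raised 4 of the 40 genes in the cerebellum and lowered none. These were Slc7a11 (cystine uptake), Gpx3 (the secreted, plasma glutathione peroxidase), Txnip (an inhibitor of thioredoxin) and Prdx6 (a peroxiredoxin that reduces phospholipid hydroperoxides and also acts as a phospholipase). Calls required an absolute log2 fold change above 0.5 and, in the edgeR quasi-likelihood test, a p below 0.05 after Benjamini-Hochberg adjustment. The 4 calls were 10% of the members, against 1.55% called among all 19447 genes tested and 0.514% called higher. Because the members were chosen with earlier results of these data known, these shares are no test of enrichment. At an unadjusted p below 0.05 there were 9 members (22.5%), against 13.4% of all genes. The groups were free of overlap for 14 members (35.0%), 13 of them higher and 1 lower in KO, against 30.0% of all genes. The median log2 fold change of the 40 members was 0.02 and that of all genes 0.00, with 23 members above 0 and 17 below. Counts come from whole tissue, in which fewer cells of a type and less RNA per cell cannot be told apart.

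**Figure D1:**
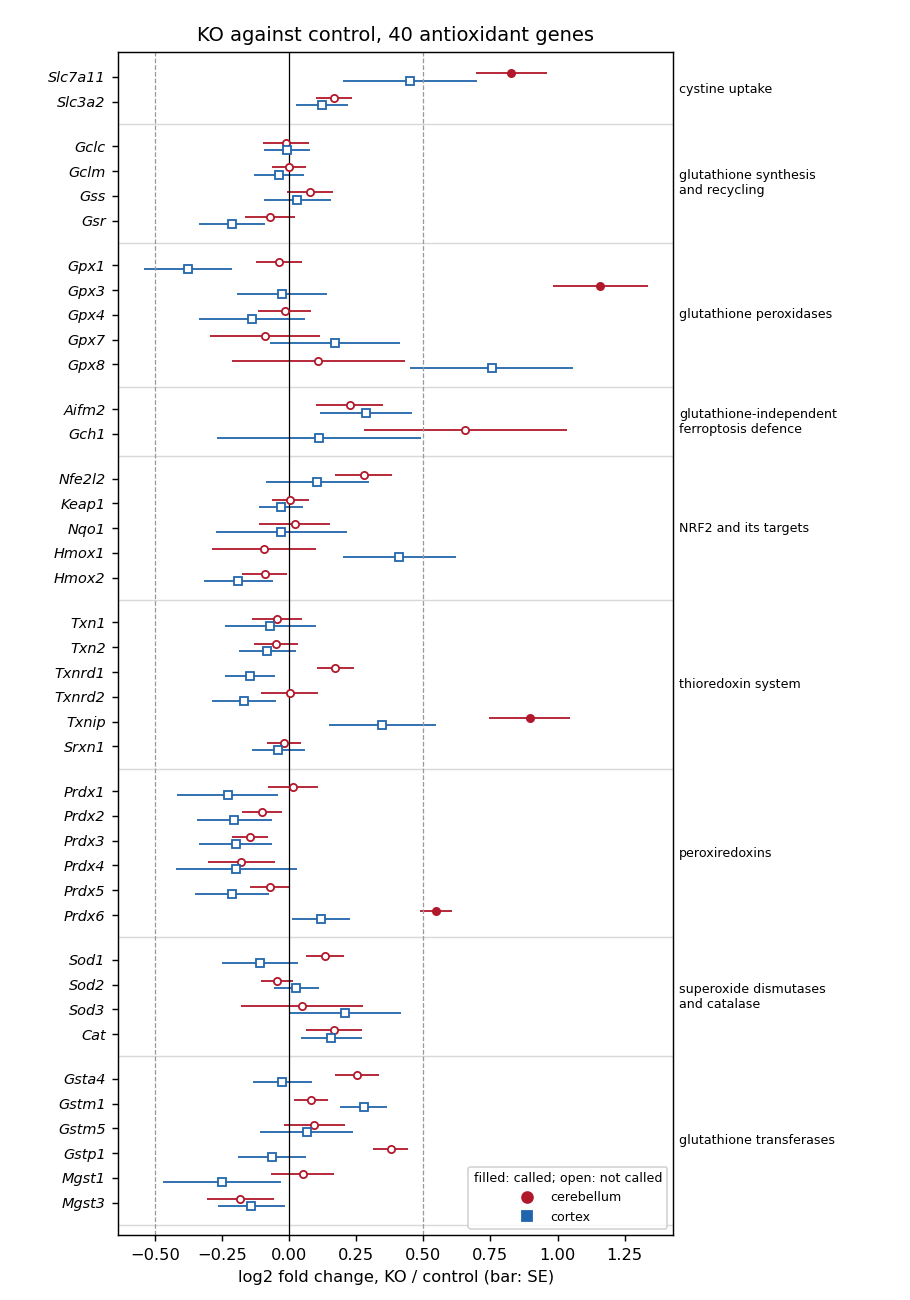
Log2 fold change of KO against control (x axis) for the 40 genes (y axis, grouped by role) in cerebellum (red circles) and cortex (blue squares), with bars of 1 SE from edgeR and filled symbols for called genes. The 4 filled symbols are Slc7a11, Gpx3, Txnip and Prdx6 in the cerebellum, and no cortex symbol is filled.

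Slc7a11 (ENSMUSG00000027737.10, chr3:49892526-50443614, minus strand) read 25.7, 19.3 and 22.0 CPM in control cerebella 1 to 3 and 36.5 and 43.1 CPM in KO cerebella 1 and 2. Both KO libraries lay above all 3 controls. The means were 22.3 ± 3.19 (SD, n = 3) and 39.8 ± 4.66 CPM (n = 2), and the log2 fold change was 0.83 (SE 0.13, adjusted p = 0.0159). Its partner Slc3a2, the heavy chain that carries the antiporter to the membrane, read 87.7 to 93.2 CPM in controls and 96.7 and 106 CPM in KO, also without overlap but with a log2 fold change of 0.17 (adjusted p = 0.320). The Slc7a11 call depended on single libraries. The adjusted p was 0.0945 without KO cerebellum 2, 0.0808 without control 3, 0.139 in a fit of all 10 libraries and 0.0265 with sex as a covariate, and over all 11 alternatives the log2 fold change lay between 0.70 and 0.95 and the adjusted p between 6.43e-11 and 0.139.

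The other ferroptosis defence genes did not pass the test in the cerebellum. Gpx4 (ENSMUSG00000075706.10, chr10:80047166-80056439, plus strand) read 213, 268 and 234 CPM in controls and 228 and 246 CPM in KO. Both KO values lay inside the range of the controls, and the log2 fold change was -0.02 (SE 0.10, adjusted p = 0.968). Aifm2 (ENSMUSG00000020085.15, chr10:61715263-61739260, plus strand) read 16, 13.9 and 17.1 CPM in controls and 19.4 and 17.5 CPM in KO. Its KO libraries lay just above the controls, with a log2 fold change of 0.22 (SE 0.13, adjusted p = 0.517). Gch1 (ENSMUSG00000037580.10, chr14:47153895-47189413, minus strand), which makes the first step of tetrahydrobiopterin synthesis and also counters ferroptosis, was the lowest member. It read 0.607, 0.601 and 0.762 CPM in controls and 0.768 and 1.28 CPM in KO, and the log2 fold change of 0.66 (SE 0.38) had an adjusted p of 0.534. Slc7a11, Gpx4 and Aifm2 thus held 1 call among 3, and the other members 3 calls among 37 (Gpx3, Txnip and Prdx6). The median log2 fold change was 0.22 for the 3, which is the value of Aifm2, and 0.01 for the 37. In cortex the medians of the same sets were 0.29 and -0.03.

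Gpx3 (ENSMUSG00000018339.11, chr11:54902453-54910377, plus strand) had the largest difference among the 40. It read 7.19, 4.81 and 5.74 CPM in control cerebella and 13.6 and 13.0 CPM in KO cerebella, so that both KO libraries were far above every control. The means were 5.91 ± 1.2 (SD, n = 3) and 13.3 ± 0.367 CPM (n = 2), a log2 fold change of 1.16 (SE 0.18, adjusted p = 0.0136). KO cerebellum 1, with 219 CPM of choroid plexus genes, and KO cerebellum 2, with 4301 CPM, had nearly the same Gpx3 level. Among the controls, control 2 had the lowest choroid plexus sum (1582 CPM) and the lowest Gpx3 level. The part of these cells in the Gpx3 difference was not tested. The adjusted p rose to 0.0791 without control 3, 0.0711 without KO 1 and 0.0575 without KO 2, with log2 fold changes from 1.14 to 1.18. Over all 11 alternatives it lay between 1.75e-08 and 0.0791. The other glutathione peroxidases did not pass: cytosolic Gpx1 and the endoplasmic reticulum members Gpx7 and Gpx8 had log2 fold changes from -0.09 to 0.11. Gpx8 read 7.61, 3.61 and 7.17 CPM in controls and 5.10 and 8.07 CPM in KO, lowest in control 2 and KO 1, which also had the lowest choroid plexus sums of the 5 libraries (1582 and 219 CPM). The part of these cells in the Gpx8 level was not tested.

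Txnip (ENSMUSG00000038393.14, chr3:96557957-96561883, plus strand) binds reduced thioredoxin and also restrains glucose uptake. It read 26.8, 25.3 and 21.8 CPM in control cerebella and 38.1 and 53.9 CPM in KO cerebella. Both KO libraries lay above all controls, and KO 2 was well above KO 1. The log2 fold change was 0.90 (SE 0.15, adjusted p = 0.0211). The adjusted p was 0.0902 without KO 2, 0.0843 without control 1 and 0.0977 without control 3, and lay between 2.23e-14 and 0.0977 over all 11 alternatives. Of the exonic bases of Txnip, 19.4% also belong to Gm15441 on the other strand, and counting ignored strand. Gm15441 read 7.28, 8.32 and 7.52 CPM in controls and 11.3 and 16.7 CPM in KO, so the reads of the genes cannot be fully told apart. Thioredoxins Txn1 and Txn2, the reductases Txnrd1 and Txnrd2, and sulfiredoxin Srxn1, which repairs oxidized peroxiredoxins, had log2 fold changes from -0.05 to 0.17, and none was called. Txnrd1 was the highest of these. It read 58.3, 54.3 and 55.6 CPM in controls and 61.4 and 65.6 CPM in KO (log2 fold change 0.17, SE 0.07, adjusted p = 0.321).

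Prdx6 (ENSMUSG00000026701.15, chr1:161240112-161251219, minus strand) was the firmest of the 4 calls. It read 152, 162 and 159 CPM in control cerebella and 231 and 232 CPM in KO cerebella. The gap between the groups was wide against the spread within each, 157.5 ± 5.0 (SD, n = 3) and 231 ± 0.701 CPM (n = 2). The log2 fold change was 0.55 (SE 0.06, adjusted p = 0.00364), and Prdx6 was called under each of the 11 alternatives, with log2 fold changes from 0.52 to 0.57 and adjusted p up to 0.0380. The other peroxiredoxins use thioredoxin and differ in where they act (Prdx1 and Prdx2 in the cytosol, Prdx3 in mitochondria, Prdx4 in the endoplasmic reticulum, Prdx5 in several compartments). None of the 5 was called, and their log2 fold changes lay between -0.18 and 0.01. Prdx3 was the only member of the 40 whose KO libraries both lay below all controls, at 67.2 and 67.6 CPM against 70.1 to 76.7 CPM (log2 fold change -0.15, adjusted p = 0.410).

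**Figure D2:**
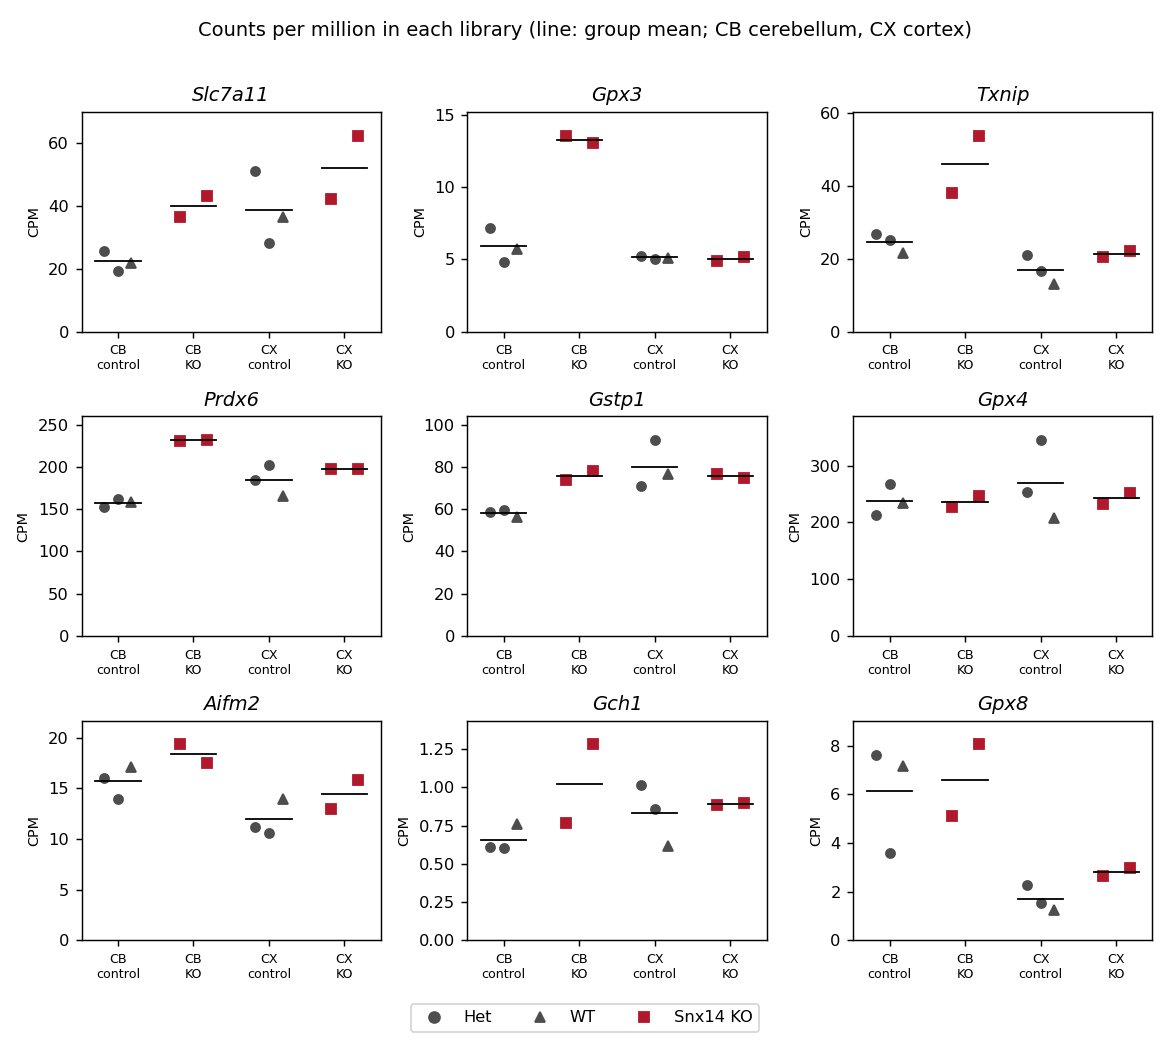
CPM in each of the 10 libraries (y axis, from 0) for 9 genes, by tissue and group, with circles for Het controls, triangles for the WT control, squares for KO and a line at the group mean. In cerebellum (CB), the KO squares of Slc7a11, Gpx3, Txnip, Prdx6 and Gstp1 lie above every control, as do those of Aifm2 and Gch1 by a narrow margin. The squares of Gpx4 lie among the controls in cerebellum, and in cortex (CX) only those of Gpx8 are clear of the controls.

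Enzymes that make or recycle glutathione were close to control. Gclc and Gclm, the catalytic and modifier subunits of the rate-limiting ligase, Gss and the reductase Gsr had log2 fold changes from -0.07 to 0.08 in KO cerebellum, and 0 of the 4 were called or had an unadjusted p below 0.05. NRF2 itself (Nfe2l2), the transcription factor of the antioxidant response, read 21.2 to 23.2 CPM in controls and 25.0 and 29.4 CPM in KO, without overlap, with a log2 fold change of 0.28 (adjusted p = 0.303). Its inhibitor Keap1, its target Nqo1 (a quinone reductase) and the heme oxygenases Hmox1 and Hmox2 had log2 fold changes from -0.09 to 0.02. Of the exonic bases of Hmox2, 40.2% overlap other genes, most of all Cdip1 on the other strand. Cdip1 read 213 to 229 CPM in control cerebella, against 78.0 to 88.6 CPM for Hmox2, so the Hmox2 value is uncertain. The 8 members with the searched antioxidant response element core in their windows ranged from -0.02 to 0.28, and 0 of these were called. Gstp1, whose window holds tgagtcagc, is not among them and is given below. Superoxide dismutases (Sod1 in the cytosol, Sod2 in mitochondria, Sod3 outside the cell) and catalase (Cat) lay between -0.05 and 0.17, with 0 of 4 called.

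Of 6 glutathione transferases, which couple glutathione to reactive compounds, 5 had higher and 1 had lower values in KO cerebellum, and 0 were called. Gstp1 (ENSMUSG00000060803.6, chr19:4035407-4037985, minus strand), named after its values were seen, had an adjusted p below 0.05 but missed the fold threshold. It read 58.5, 59.5 and 56.2 CPM in controls and 73.8 and 77.9 CPM in KO, without overlap, with a log2 fold change of 0.38 (SE 0.07, adjusted p = 0.0225, and 0.000538 to 0.176 over 11 alternatives). Gsta4, which acts on the lipid peroxidation product 4-hydroxynonenal, read 40.2 to 44.2 CPM in controls and 49.0 and 53.0 CPM in KO (log2 fold change 0.25, adjusted p = 0.211). Gstm1, Gstm5, Mgst1 and Mgst3 lay between -0.18 and 0.09. Reads mapping to several places were not counted, so values of Gstp1, the Gstm genes and other members with near-identical copies are uncertain.

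Marker genes of several cell types moved in the same libraries. Of 10 Purkinje cell genes, 8 were called lower in KO cerebellum, and their summed level was 10170 to 11900 CPM in controls and 5661 to 5904 CPM in KO. Of 10 astrocyte genes, 4 were called higher (5511 to 6138 CPM against 6565 to 6926 CPM), as were 2 of 10 microglial genes (248 to 285 CPM against 369 to 371 CPM). Of 5 Bergmann glia genes 2 were called lower, and of 10 granule cell genes 0. No marker of these lists was at 0 in every library. The part of these cell types in the 4 calls was not tested.

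In the cortex 0 of the 40 members were called. This matches a background of 0.0% of 19202 genes called by edgeR at these thresholds, and DESeq2 called 0 members as well. Snx14 itself was not called in cortex by edgeR (log2 fold change -1.36, adjusted p = 0.754). The 0 calls therefore cannot show that the members were unchanged there. At an unadjusted p below 0.05 there were 2 members (5.0%), Gpx8 and Gstm1, against 5.93% of all genes. KO and control did not overlap for 10 members (25.0%), 3 higher and 7 lower, against 24.7% of all genes. The median log2 fold change was -0.03, with 16 members above 0 and 24 below, beside a median of 0.00 for all genes. All 9 striatal neuron genes were lower in KO cortex without overlap, although 0 were called, and control 2 had the highest sum. All 10 astrocyte genes had positive log2 fold changes in KO cortex, 7 of them without overlap, and 0 were called. Their summed level was 3807 to 5162 CPM in controls and 5512 to 5809 CPM in KO. Of 10 microglial genes 5 were positive and 5 negative. The part of these differences in tissue content in the cortex values was not tested.

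The 4 genes raised in KO cerebellum had smaller log2 fold changes in the cortex, and 0 of them were called there. Slc7a11 read 51.0, 28.1 and 36.4 CPM in control cortices and 42.1 and 62.2 CPM in KO cortices. The groups overlapped, with a log2 fold change of 0.45 (SE 0.25, adjusted p = 0.886). It was not called under any of 11 alternatives, although without a filter on low counts its adjusted p was 0.0376 at a log2 fold change of 0.45. Gpx3 read 5.27, 5.06 and 5.09 CPM in controls and 4.86 and 5.14 CPM in KO, a log2 fold change of -0.03 (SE 0.17, adjusted p = 0.984). The 5 Gpx3 values spanned less than the controls did in cerebellum. Txnip read 21, 16.8 and 13.0 CPM in controls and 20.5 and 22.2 CPM in KO (log2 fold change 0.35, SE 0.20, adjusted p = 0.886). Prdx6 read 184, 203 and 165 CPM in controls and 198 in both KO (log2 fold change 0.12, SE 0.11, adjusted p = 0.904). For both genes the KO values lay within or close to the range of the controls.

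Gpx4 and Aifm2 did not pass in cortex either. Gpx4 read 254, 345 and 208 CPM in controls and 233 and 252 CPM in KO, a log2 fold change of -0.14 (SE 0.20, adjusted p = 0.935) that became 0.09 without control 2. Aifm2 read 11.2, 10.6 and 14.0 CPM in controls and 13.0 and 15.9 CPM in KO (log2 fold change 0.29, SE 0.17, adjusted p = 0.886). Gpx8 (ENSMUSG00000021760.5, chr13:113042753-113046410, minus strand) read 2.28, 1.52 and 1.23 CPM in controls and 2.65 and 2.96 CPM in KO. Both KO libraries lay above all controls, but the log2 fold change of 0.76 (SE 0.30) had an adjusted p of 0.824. Gch1 read 1.02, 0.861 and 0.614 CPM in controls and 0.883 and 0.899 CPM in KO, with overlap (log2 fold change 0.11, adjusted p = 0.969). Hmox1 (0.41) and Gstm1 (0.28) were the others higher without overlap. The 7 members lower in KO cortex without overlap were Gsr, Gpx1, Keap1, Txnrd1, Txnrd2, Prdx2 and Prdx5, with log2 fold changes from -0.38 to -0.03. Gpx1 had the largest of these. It read 68.6, 92.1 and 62.5 CPM in controls and 54.7 and 58.9 CPM in KO (adjusted p = 0.852).

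A difference in KO effect between the tissues was tested in 1 fit of all libraries, at an adjusted p below 0.05. No member passed it, while 0.102% of 20614 genes did. At an unadjusted p below 0.05 there were 5 members, Gpx3, Prdx6, Txnrd1, Gstp1 and Gsta4, 12.5% of the 40 beside 8.28% of all genes. The cerebellar effect of Gpx3 exceeded the cortical one by 1.21 on the log2 scale (SE 0.25, adjusted p = 0.126). DESeq2 called it (adjusted p = 0.0166), as did edgeR without a filter on low counts (adjusted p = 0.00708), and the adjusted p was 0.0513 with the mouse as a block. It lay between 0.00708 and 0.525 over 16 alternatives, and the sign was positive in all of them. For Slc7a11 the difference was 0.40 (SE 0.33, adjusted p = 0.851), for Txnip 0.57 (SE 0.28, adjusted p = 0.640) and for Prdx6 0.45 (SE 0.12, adjusted p = 0.261). A KO effect confined to the cerebellum was therefore not shown for these genes. The cerebellar and cortical libraries come from the same mice.

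Levels of the genes were compared within control tissue as CPM per kilobase of exon, which allows genes of unequal length to be set side by side. Gpx4 was the highest member in both tissues, at 138 ± 16 (SD, n = 3) in cerebellum and 156 ± 40.5 in cortex. In cerebellum Gstm1 (122 ± 4.03) and Prdx5 (115 ± 7.36) followed. The range of Gstm1 over the 3 controls overlapped those of Gpx4 and Prdx5, but Gpx4 lay above Gstm1 in each control cerebellum. The order of Gstm1 and Prdx5 changed between libraries, while Prdx5 stayed just below Gpx4. In cortex Gstm5 (108 ± 24.2) and Prdx5 (102 ± 16.4) came next, and the range of Gstm5 overlapped those of both neighbours. Gpx4 lay above Gstm5 in each control cortex, while the order of Gstm5 and Prdx5 changed between libraries. Gch1 was last in both tissues, at 0.105 ± 0.0146 and 0.133 ± 0.0326. Aifm2 (3.81 ± 0.396) and Slc7a11 (1.60 ± 0.229) stood at ranks 34 and 39 of 40 in the cerebellum, so the 3 ferroptosis defence genes lay far apart in the order, with Gch1 alone below Slc7a11. The order depends on the annotated length, which counts all exons of a gene. Slc7a11 has the longest of the 40, at 13922 bases.

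**Figure D3:**
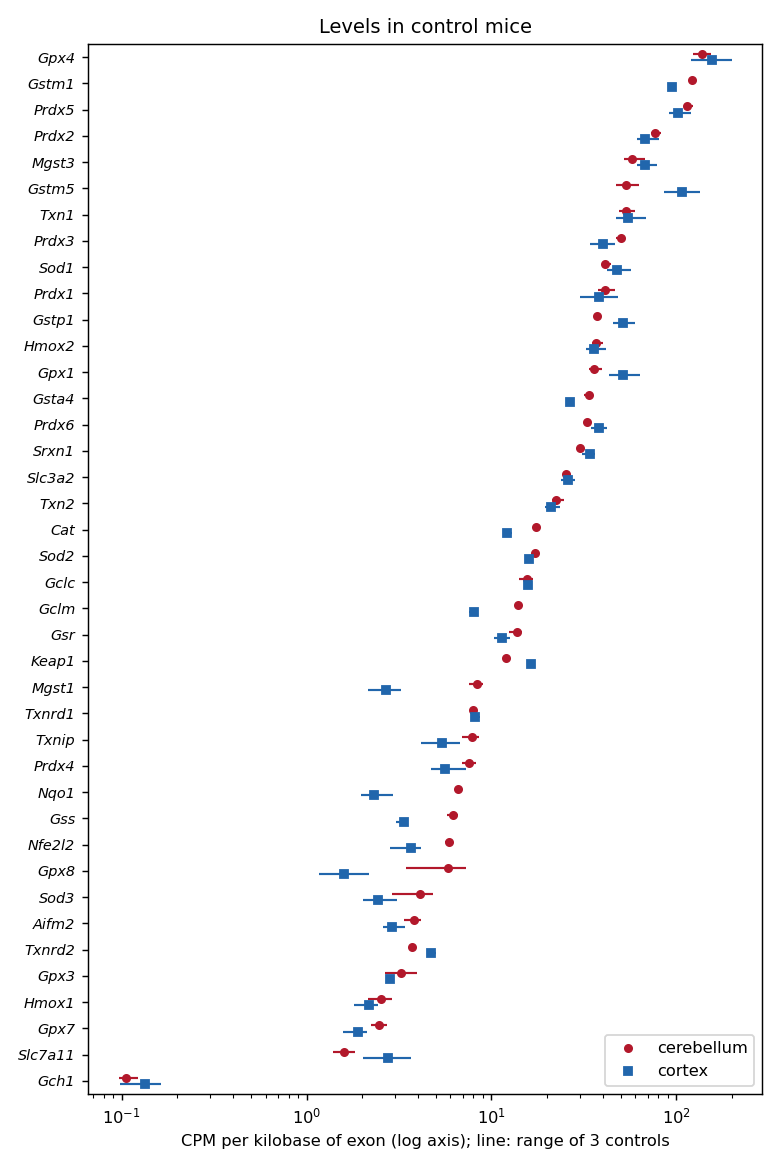
CPM per kilobase of exon (x axis, log scale) for the 40 genes (y axis, ordered by the cerebellar mean) in control cerebellum (red circles) and control cortex (blue squares). Symbols are means of 3 libraries and lines their ranges, from Gpx4 at 138 and 156 down to Gch1 at 0.105 and 0.133.

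Cerebellum and cortex of the control mice differed for 12 of the 40 members (30.0%), against 40.9% of all genes tested. In cerebellum 9 members were called higher, beside 19.2% of all genes, and 3 were called lower, beside 21.8%. Among those higher in cerebellum, the largest differences were those of Gpx8, Mgst1 (a microsomal transferase and peroxidase), Nqo1, Gss and Gclm. Mgst1 read 15.3, 18.2 and 17.1 CPM in control cerebella and 5.33, 6.53 and 4.36 CPM in control cortices, with no overlap (log2 fold change 1.63, SE 0.15, adjusted p = 3.86e-06). Nqo1 read 10.7, 10.2 and 9.81 CPM against 3.05, 4.56 and 3.19 CPM (log2 fold change 1.5, SE 0.17, adjusted p = 1.82e-05). Gss read 37.8, 34.1 and 38.9 CPM against 18.1, 20.8 and 20.6 CPM (log2 fold change 0.90, SE 0.09, adjusted p = 6.97e-06). Of its exonic bases, 15.4% are shared, most of all with Acss2 on the other strand, which had a log2 difference of 0.29. Gclm read 91.3, 86.6 and 85.2 CPM against 53.4, 51.2 and 47.6 CPM (log2 fold change 0.79, SE 0.07, adjusted p = 1.93e-06). All 4 were clear of overlap, whereas Gclc, the other ligase subunit, read 53.5 to 63.2 CPM in cerebellum and 57.6 to 61.4 CPM in cortex. Gpx8 had the largest value, 1.87 (SE 0.33, adjusted p = 0.000610). Summed choroid plexus genes were 1582 to 4983 CPM in control cerebella and 255 to 297 CPM in control cortices, and their part in the Gpx8 difference was not tested.

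Slc7a11, Gstm5 and Gpx1 were the members called lower in the cerebellum of control mice. Its control values given above had a log2 difference of -0.79 (SE 0.21, adjusted p = 0.00886), with all 3 cerebella below all 3 cortices. Gstm5 read 60.6, 80.1 and 65.0 CPM in control cerebella and 132, 171 and 110 CPM in control cortices, a log2 difference of -1.0 (SE 0.15, adjusted p = 0.000176) without overlap. Of its exonic bases, 13.9% also belong to 4933431E20Rik on the other strand, which had a log2 difference of -0.75. The reads of these genes cannot be fully told apart. Gpx1 was the third gene called lower, at 48.8, 57.2 and 50.0 CPM against 68.6, 92.1 and 62.5 CPM. Its log2 difference of -0.52 (SE 0.13, adjusted p = 0.00496) was under the fold threshold without cortex control 2 (-0.35), cerebellum control 1 (-0.47) or cerebellum control 3 (-0.49). Sod3 (0.75), Nfe2l2 (0.67), Txnip (0.54) and Cat (0.52) were the remaining genes called higher in cerebellum. Gpx4 (-0.17, adjusted p = 0.367) and Aifm2 (0.39, adjusted p = 0.0331) were not called, the latter for its fold, which passed without cortex control 3 (0.51, adjusted p = 0.0136). Of 6 peroxiredoxins 0 were called, and Prdx4 was called without cortex control 2. Gstp1 was called lower without cortex control 1 or 3. With each library left out in turn, Gpx8, Mgst1, Nqo1, Gss, Gclm, Slc7a11 and Gstm5 stayed called every time. Gpx1, Sod3, Nfe2l2, Txnip and Cat each lost the call at least once, 4 of them (Sod3, Nfe2l2, Txnip and Cat) without cortex control 3.

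**Figure D4:**
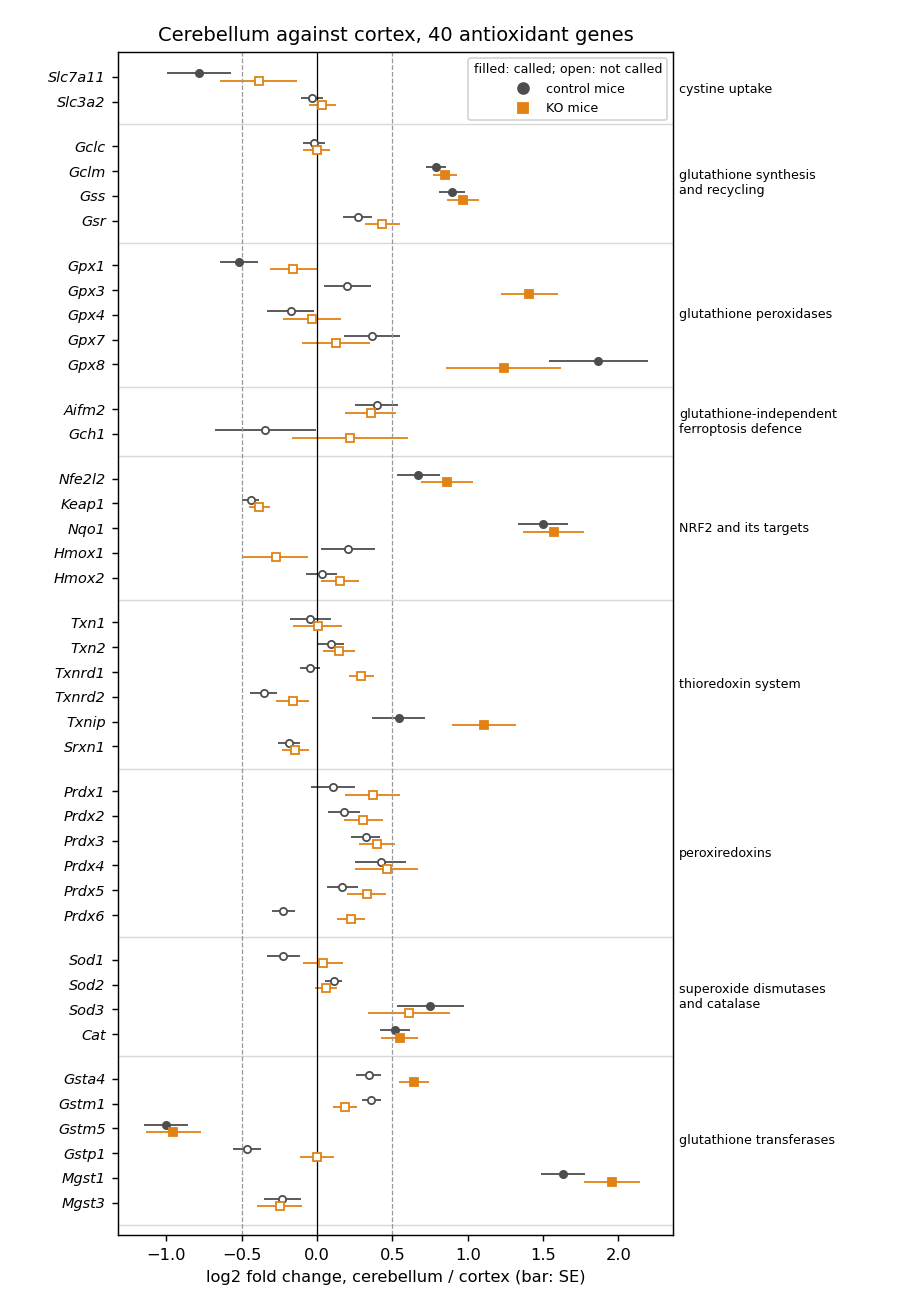
Log2 fold change of cerebellum against cortex (x axis) for the 40 genes (y axis, grouped by role) in control mice (grey circles) and KO mice (orange squares), with bars of 1 SE and filled symbols for called genes. Gpx8, Mgst1 and Nqo1 lie far to the right in both, Gstm5 to the left in both, and Gpx3 is filled only in KO mice at 1.41.

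In KO mice 11 members (27.5%) were called between the tissues, against 35.6% of all genes, 10 higher in cerebellum and 1 lower. Of these, 9 were shared with the 12 called in controls, 75.0% of the control list and 81.8% of the KO list. Slc7a11, Gpx1 and Sod3 were called in controls only, and Gpx3 and Gsta4 in KO only. With the mouse as a block Sod3 was called in KO mice too and joined the shared genes. Gpx8 lost its call in KO mice without cerebellum KO 2 and without either KO cortex, and Cat without cerebellum KO 2 and without cortex KO 1. Gpx3 had a log2 difference of 0.20 (SE 0.16, adjusted p = 0.30) in controls and 1.41 (SE 0.19, adjusted p = 0.000125) in KO mice, and Slc7a11 had -0.79 and -0.39 (SE 0.25, adjusted p = 0.241). The change of a tissue difference with genotype is the same quantity as the difference in KO effect tested above, which no member passed.

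Neighbouring pathways were read from lists of genes outside the 40. In KO cerebellum 2 of the 148 tested genes on these 9 lists were called (1.35%), Cbs and Dio2, a share near the 1.55% called among all genes. At an unadjusted p below 0.05 there were 31 (20.9%), beside 13.4% of all genes. Cbs, cystathionine beta-synthase of the transsulfuration route to cysteine, read 36.6, 37.0 and 39.5 CPM in controls and 62.6 and 52.6 CPM in KO (log2 fold change 0.60, SE 0.09, adjusted p = 0.0134), 1 call among 10 tested genes of cysteine supply. Dio2, a selenoprotein deiodinase that activates thyroid hormone, read 35.8, 39.1 and 44.3 CPM in controls and 63.7 and 53.9 CPM in KO (log2 fold change 0.56, SE 0.11, adjusted p = 0.0426), 1 call among 19 selenoprotein genes. Both genes lay above all controls in both KO libraries. In cortex 0 genes of these lists were called by edgeR, where Cbs had a log2 fold change of 0.42 (adjusted p = 0.754) and Dio2 of 0.56 (adjusted p = 0.797).

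Further glutathione transferases, 15 of 20 listed genes tested, all had positive log2 fold changes in KO cerebellum, with a median of 0.36 beside 0.00 for all genes, but 0 were called and 3 had an unadjusted p below 0.05, beside 13.4% of all genes. Those with the smallest p were Gstm6 (0.95, adjusted p = 0.106) and Gstk1 (0.52, adjusted p = 0.118). In cortex 5 of the 15 were positive, with a median of -0.06. Among 10 tested sources of reactive oxygen, 8 were positive with a median of 0.38, and 0 were called while 4 had an unadjusted p below 0.05, against the 13.4% of all genes given above, led by the NADPH oxidase subunits Cyba (0.58, adjusted p = 0.111) and Ncf1 (0.54, adjusted p = 0.281). Of 14 genes that supply NADPH, 10 were positive with a median of 0.12, and Aldh1l1, a folate enzyme also used as an astrocyte marker, had 0.32 (adjusted p = 0.0448), under the fold threshold. Idh2 had 0.34 (adjusted p = 0.233).

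Lists of the other thioredoxin and methionine sulfoxide genes (16 tested), glutathione turnover and glutaredoxins (16), other NRF2 pathway genes (18) and other ferroptosis genes (30) had 0 calls by edgeR in KO cerebellum. They held 1, 1, 2 and 7 genes with an unadjusted p below 0.05, of which the first 3 counts are shares at or below the 13.4% of all genes, and their medians were 0.02, -0.04, 0.13 and -0.02. Their smallest p belonged to Sesn3 (0.22, adjusted p = 0.301) and Msrb1 (0.25, adjusted p = 0.410), Oplah (0.31, adjusted p = 0.0644) and Hagh (-0.14, adjusted p = 0.490), Mafg (0.30, adjusted p = 0.151) and Bach1 (0.23, adjusted p = 0.370), and Fads2 (0.39, adjusted p = 0.0461) and Scd1 (0.38, adjusted p = 0.0830). Fads2 and Scd1 are fatty acid desaturases. Selenos, a selenoprotein of endoplasmic reticulum quality control, had -0.44 (adjusted p = 0.0179). Fads2 and Selenos passed the p threshold but not that on the fold.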

How the data were processed

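Raw counts of read pairs per gene were deposited, 1 table per library, with no normalization. The authors trimmed strand-specific reads, aligned them to GRCm38 with STAR and counted exons with featureCounts (Subread 2.0.1), without strand and without multimapping reads. Pairs overlapping several genes counted for each. In 7 members over 10% of exonic bases overlap another gene: Hmox2 (40.2%), Txnip (19.4%), Prdx5 (19.1%), Gss (15.4%), Gstm5 (13.9%), Prdx2 (11.5%) and Keap1 (10.9%). Reads of these members cannot be fully told apart from those of the other gene. The 26345 entries without a mouse gene identifier held 0.160% to 0.926% of counts and were left out.

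KO and control (2 and 3 libraries a tissue) were compared within tissue by the edgeR 4.0.16 quasi-likelihood F test in R 4.3.3, with TMM factors, filterByExpr (count minimum 10) and Benjamini-Hochberg adjustment over all genes tested. Tissue contrasts and the interaction came from 1 fit of 4 groups. Scripts were tested on simulated data. CPM are TMM-scaled over 10 libraries. Tissues pair by mouse in the labels (correlation of deviations 0.164 to 0.370). Replicates differed beyond counting noise. At these totals, counting error matters mainly for the lowest members. Alternatives were DESeq2 1.42.0, other scaling, no filter, blocks, sex and leaving out libraries. Named were Slc7a11, Gpx4, Aifm2, called members, members without overlap past the fold threshold, the 5 largest tissue differences each way, and per list the called or 2 smallest-p genes. Members, lists and motifs were chosen with earlier results of these data known.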

Additional observations from a re-analysis of the deposited data

How the results depend on the processing

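With 2 KO mice per tissue, each call rests on few libraries. The 4 members called in KO cerebellum stayed 4 with DESeq2, other size factors, no filter on low counts and sex as a covariate (added after seeing the data), and were 3 in a fit of all 10 libraries. Leaving out 1 library gave 1 to 4, with Prdx6 alone left without KO 2 or without control 3; a group with 1 library left was taken to vary like the others. With the replicate number as a block the count was 1 (Prdx6). Those numbers pair no animals (correlation of deviations -0.035 to 0.114), and no crossed pairing was tried. In cortex 0 members were called under each alternative. The difference in KO effect had 1 call, Gpx3, with DESeq2 and 1 with no filter, and 0 otherwise. Leaving out 1 library gave 9 to 12 tissue calls in controls and 9 to 12 in KO mice. Pairing the tissues by mouse added Sod3 in KO mice (12 calls) and changed no other call of a member. Over all genes, the 302 calls in KO cerebellum became 842 without a filter, 181 with the block and 133, 179 and 180 without control 1, control 3 and KO 1. The 0 calls in cortex became 49 with DESeq2, 380 without a filter and 98 without control 2, and the 21 differences in KO effect 219, 599, 128 with the mouse as a block and 198 without control mouse 2 (added after seeing the data).

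Signs reversed for small log2 values only. With 1 library left out, Gpx4 ranged from -0.0935 to 0.0758 in cerebellum (0.0449 without KO 1) and from -0.295 to 0.0851 in cortex, and its difference in KO effect from -0.101 to 0.270 (-0.0177 without control mouse 2). Gpx8 in cerebellum ranged from -0.274 to 0.400 (-0.160 without control 2). In cortex Gpx3 ranged from -0.0620 to 0.00505, Gstp1 from -0.144 to 0.0597 and Gch1 from -0.0591 to 0.272 (-0.0614 with the replicate number block). The Aifm2 difference in KO effect ranged from -0.191 to 0.110, and was above 0 without cerebellum control 3, cerebellum KO 2, cortex control 2 or cortex KO 2. The cause was not tested. Of 470 single-gene values under alternatives, 437 kept direction and side of the threshold.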

Other observations

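Txnrd1, cytosolic thioredoxin reductase, was the only member whose KO and control libraries were apart in opposite directions in the tissues. It read 61.4 and 65.6 CPM in KO cerebella, above 54.3 to 58.3 CPM in controls, and 53.1 and 50.4 CPM in KO cortices, below 55.3 to 61.3 CPM in controls. The difference of the KO effects was 0.34 on the log2 scale (SE 0.11, adjusted p = 0.347 by edgeR), which did not pass. It was named after its values were seen. No member was apart in the same direction in both tissues. Of all genes tested, 30.0% were apart in cerebellum and 24.7% in cortex. The share of all genes apart in both tissues was not counted, so these counts of members cannot be set against it.

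Gstp1 was lower in cerebellum than in cortex in control mice, at 56.2 to 59.5 CPM against 70.9 to 92.8 CPM (log2 difference -0.46, adjusted p = 0.00125, under the fold threshold). In KO mice it read 73.8 and 77.9 CPM in cerebellum and 76.8 and 74.9 CPM in cortex. Prdx6 read 152 to 162 CPM in control cerebella and 165 to 203 CPM in control cortices, and 231 and 232 CPM against 198 CPM in KO mice. Neither difference in KO effect passed (adjusted p = 0.343 and 0.261).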
